A study of Mus musculus with 14 samples.

Results

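The genes described here are the Wnt ligands, their Frizzled and Lrp5/Lrp6 receptors, the secreted antagonists of the pathway and Axin2, in mouse ear skin that lacked Langerhans cells and was painted with vehicle or croton oil. Members were taken by name from the deposited gene table: every Wnt and Fzd gene, Sfrp1, Sfrp2, Sfrp4 and Sfrp5, Dkk1 to Dkk4, and Sostdc1, Sost, Wif1, Lrp5, Lrp6, Axin2 and Notum. This gave 44 of 24035 genes. They comprise 19 ligands, 12 receptors, 12 secreted antagonists and 1 target gene, Axin2. The rule reads names alone, though the family was picked with earlier results of these data known.

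Wnt proteins are lipid-modified secreted signals. In the canonical pathway a Wnt binds a Frizzled receptor together with the coreceptor Lrp5 or Lrp6, the complex that destroys beta-catenin is held back, and beta-catenin enters the nucleus and switches on genes with TCF/LEF proteins. Non-canonical Wnt signalling uses Frizzled and other receptors without beta-catenin, as in planar cell polarity, which orients hairs. Secreted antagonists either bind the Wnt itself (Sfrp proteins, Wif1), block the coreceptor (Dkk1, Dkk2, Dkk4, Sost, Sostdc1) or remove the Wnt lipid (Notum). In skin the pathway is known for driving hair follicle formation and cycling and for supporting stem cells of the epidermis.

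RNA was measured in 14 whole ears by mRNA sequencing, in 4 groups of 3 or 4. Langerhans cells are dendritic cells that live in the epidermis. LC-DTA mice carry a diphtheria toxin A transgene and lack them over the long term. LC-DTR mice carry a diphtheria toxin receptor transgene and were used 3 days after diphtheria toxin (DT), so their loss was recent. Both sides of the ear received 20 µl of vehicle (acetone and olive oil, 4:1; 3 samples per genotype) or of 1% croton oil, an irritant (4 samples per genotype), for 6 h. In the published lines of these names the transgenes are driven by regulatory sequence of the human langerin gene; the labels name no promoter, strain, age or sex, and do not say whether LC-DTA mice also received DT. No ear with intact Langerhans cells and no unpainted ear was analysed here, so vehicle is the reference for croton oil and the genotypes are compared only with each other. Genotype, DT and the time since loss cannot be told apart in that comparison. Nothing states that the samples came from separate animals, so the p-values measure the spread between these samples, which may be partly technical.

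Values were TPM, transcript levels corrected for gene length and scaled to 1 fixed total per sample, so levels can be compared between genes; sequencing depth is unknown. Each sample had 13733 to 14332 genes at 1 TPM or more. The defining epidermal keratin genes Krt14 and Krt5, the dermal collagen gene Col1a1 and the cartilage gene Acan were expressed in all samples, and Cd207 (langerin) reached at most 1.88 TPM in any sample. Differences are given as differences of log2(TPM + 1) with their standard error, which understates the fold change of low genes. They were tested with limma across 14693 genes, and a gene was called at a Benjamini-Hochberg adjusted p under 0.05. Of the 44 members, 36 entered the tests, and 33 of these had at least 1 TPM in every one of the 14 samples; the exceptions were Wnt10b, Wnt2 and Sfrp4. The other 8 stayed under 1 TPM in every sample: Wnt1, Wnt7a, Wnt8a, Wnt8b and Wnt9b reached at most 0.503 TPM, and Dkk1, Dkk4 and Sost at most 0.484. Because whole ears were used, fewer cells of a type and less RNA per cell cannot be told apart for any gene below.

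In vehicle-painted ears a few genes made up most of each class. The ligand genes summed to 285 ± 19.2 TPM (SD, n = 3) in LC-DTR and 279.96 ± 5.06 TPM (SD, n = 3) in LC-DTA. Wnt4 held 27.8 ± 0.942% of the LC-DTR sum, Wnt7b 27.8 ± 0.275%, Wnt10a 17.6 ± 1.595% and Wnt3 9.33 ± 1.42% (mean ± SD). The receptor genes summed to 406 ± 9.79 and 414 ± 23.9 TPM, led by the coreceptor gene Lrp5. The antagonists summed to 366 ± 61.1 and 527 ± 60.9 TPM, led by Wif1 and Dkk3. Wif1 was the most abundant member in all 4 groups. After croton oil the ligand sum was 201 ± 16.5 TPM in LC-DTR and 186 ± 12.1 TPM in LC-DTA (SD, n = 4). Wnt10a then held 24.98 ± 1.34% and 25.98 ± 1.46% of it, against 18.8 ± 2.96% and 14.4 ± 0.794% for Wnt7b. The receptor sums were 329 ± 17.1 and 297 ± 11.2 TPM and the antagonist sums 256 ± 25.9 and 323 ± 27.7 TPM. The lowest ligand sum of each vehicle group lay above the highest of the matching croton oil group.

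**Figure D1:**
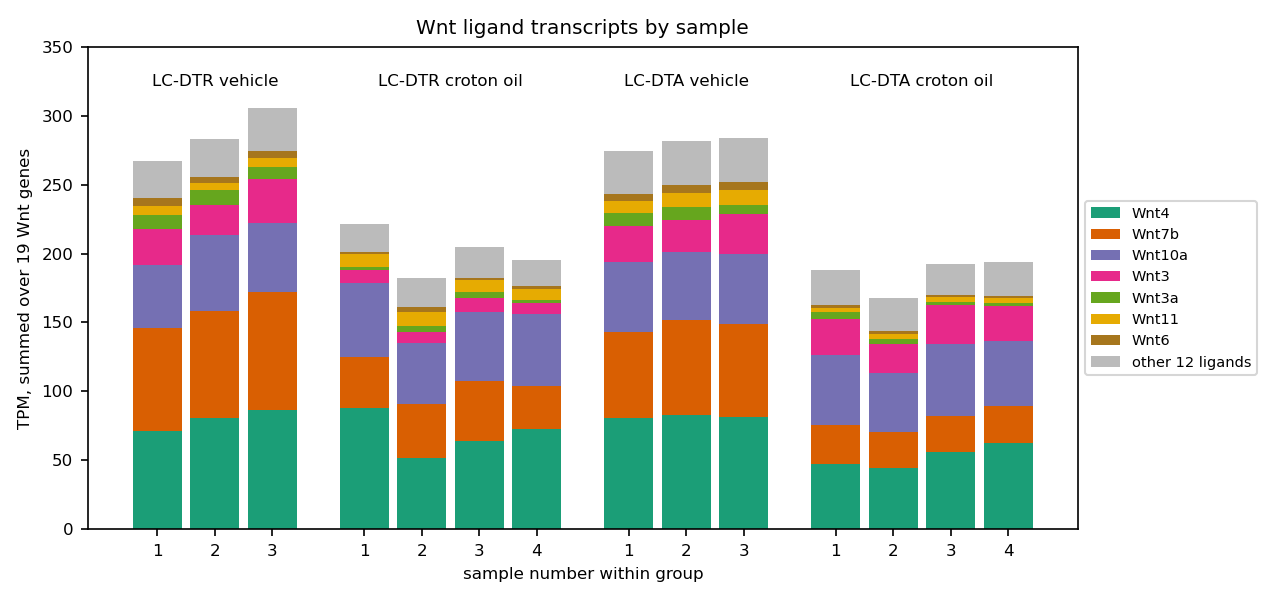
TPM of the 19 Wnt ligand genes stacked in 1 bar per sample, with 7 genes shown by colour and the other 12 in grey. The Wnt7b segment is smaller in every croton oil bar than in the vehicle bars of its genotype, the Wnt3 segment is smaller in the LC-DTR croton oil bars, and the Wnt10a segment is of similar height throughout.

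**Figure D2:**
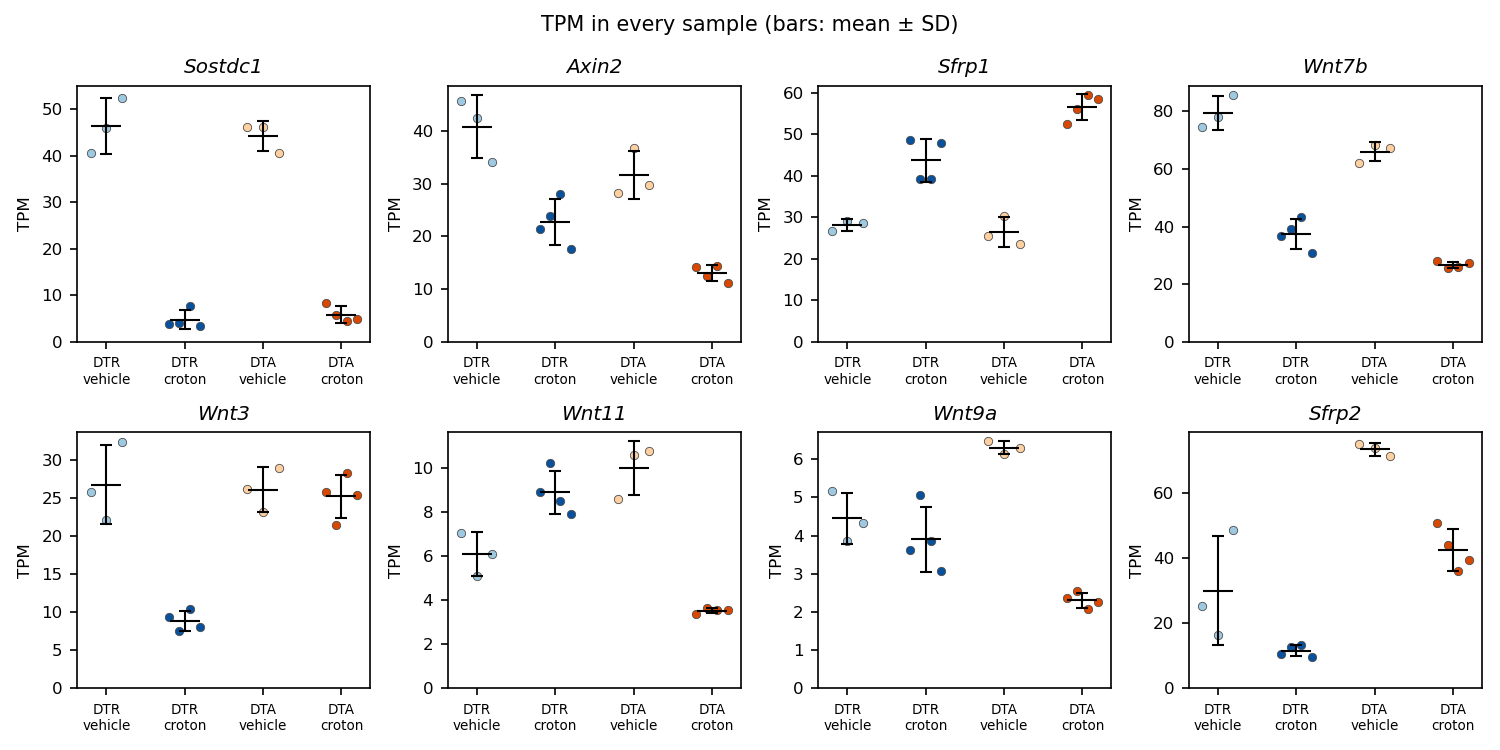
TPM of 8 members in each of the 14 samples, by group of genotype and treatment, on linear axes from 0. Points are samples and bars the mean ± SD. Sostdc1, Axin2 and Wnt7b are lower after croton oil in both genotypes, Sfrp1 is higher in both, and Wnt3, Wnt11 and Wnt9a differ in pattern between the genotypes.

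Croton oil lowered more of these genes than it raised, in both genotypes. In LC-DTR ears 18 of the 36 tested members fell and 3 rose; over all genes tested, 51.6% were called, 29.5% lower and 22.1% higher, against 18 and 3 of the 36 members. In LC-DTA ears 25 fell and 2 rose; over all genes 58.7% were called, 34.5% lower and 24.2% higher, against 69.4% and 5.56% of the members. The median log2 difference of the members was -0.25 in LC-DTR and -0.54 in LC-DTA, against -0.060 and -0.090 for all genes tested. The groups did not overlap for any of the 21 and 27 members called. Without regard to the test, they did not overlap for 21 of the 36 members in LC-DTR and 29 in LC-DTA. Over all genes the shares were 47.7% in LC-DTR and 63.0% in LC-DTA. The members that fell in both genotypes numbered 14, of the 18 that fell in LC-DTR and the 25 that fell in LC-DTA. The share of all genes that fell in both was not computed, so this sharing is not shown to be particular to the members. The 14 were Wnt3a, Wnt5b, Wnt6, Wnt7b, Wnt10b, Fzd2, Fzd3, Fzd6, Fzd7, Lrp5, Dkk3, Sfrp2, Sostdc1 and Axin2. Sfrp1 rose in both.

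**Figure D3:**
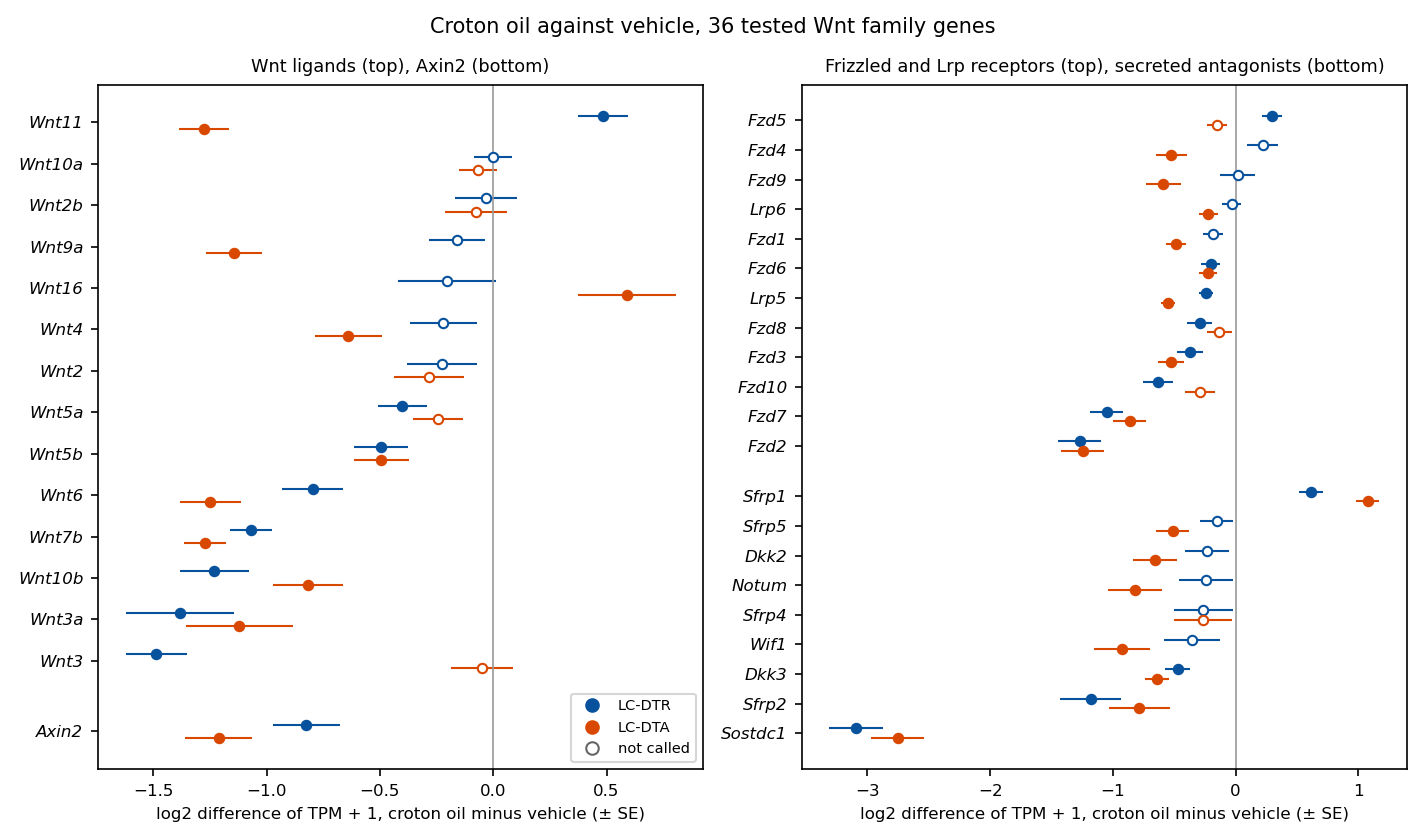
Difference of log2(TPM + 1), croton oil minus vehicle, for the 36 tested members in LC-DTR and LC-DTA. Points are fitted differences, bars are ± SE, and open points were not called. Most points lie below 0 in both genotypes, with Sostdc1 lowest, and Wnt3, Wnt11 and Wnt9a lie far apart in the genotypes.

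Among the ligands, 7 of 14 fell and 1 rose in LC-DTR, and 8 fell and 1 rose in LC-DTA. The shares that fell were 50% and 57.1%, against 29.5% and 34.5% of all genes. Wnt7b, an abundant canonical ligand of epidermis and hair follicle, fell in both. Wnt7b read 74.6, 77.98 and 85.8 TPM in the LC-DTR vehicle samples, 36.9, 39.2, 43.4 and 30.9 in the LC-DTR croton oil samples, 62.2, 68.5 and 67.3 in the LC-DTA vehicle samples and 27.9, 25.7, 25.96 and 27.3 in the LC-DTA croton oil samples. Every croton oil sample lay below every vehicle sample of its genotype. The log2 difference was -1.07 ± 0.092 (adjusted p = 2.33e-06) in LC-DTR and -1.27 ± 0.092 (adjusted p = 7.97e-07) in LC-DTA.

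Wnt3a and Wnt10b, canonical ligands active in the hair follicle, fell in both genotypes too. Wnt3a read 10.2, 10.7 and 8.58 TPM in the LC-DTR vehicle samples, 2.57, 4.395, 4.37 and 1.83 in the LC-DTR croton oil samples, 9.23, 9.26 and 6.87 in the LC-DTA vehicle samples and 5.12, 3.64, 2.54 and 2.45 in the LC-DTA croton oil samples. The difference was -1.38 ± 0.24 (adjusted p = 3.36e-04) in LC-DTR and -1.12 ± 0.24 (adjusted p = 0.00114) in LC-DTA, with no overlap in either. Wnt10b read 4.14, 5.42 and 5.22 TPM in the LC-DTR vehicle samples, 1.15, 2.07, 2.01 and 1.01 in the LC-DTR croton oil samples, 2.14, 2.71 and 2.63 in the LC-DTA vehicle samples and 1.21, 0.997, 0.975 and 0.757 in the LC-DTA croton oil samples. In LC-DTR it fell by 1.23 (SE 0.15, adjusted p = 3.56e-05) and in LC-DTA by 0.82 (SE 0.15, adjusted p = 5.05e-04). Wnt10b ended under 1 TPM in 3 of the 4 LC-DTA croton oil samples.

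Wnt6, expressed in epidermis, and Wnt5b, mostly a non-canonical ligand, also fell in both. Wnt6 read 5.26, 4.09 and 5.21 TPM in the LC-DTR vehicle samples, 1.91, 3.52, 2.04 and 2.16 in the LC-DTR croton oil samples, 5.07, 5.51 and 5.46 in the LC-DTA vehicle samples and 1.77, 1.74, 1.601 and 1.57 in the LC-DTA croton oil samples. LC-DTR croton oil sample 2 stood above the other 3 of its group, yet all croton oil samples were below the vehicle samples. The Wnt6 difference was -0.80 ± 0.13 (adjusted p = 3.11e-04) in LC-DTR and -1.25 ± 0.13 (adjusted p = 7.20e-06) in LC-DTA. Wnt5b read 3.87, 4.11 and 4.57 TPM in the LC-DTR vehicle samples, 2.397, 3.06, 3.02 and 2.29 in the LC-DTR croton oil samples, 7.87, 6.77 and 6.49 in the LC-DTA vehicle samples and 4.42, 5.86, 3.94 and 4.73 in the LC-DTA croton oil samples. Its difference was -0.49 ± 0.12 (adjusted p = 0.00381) in LC-DTR and -0.49 ± 0.12 (adjusted p = 0.003199) in LC-DTA.

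Other ligands passed the test in LC-DTA alone or in LC-DTR alone. Wnt4, the leading ligand gene, ranged widely after croton oil. Wnt4 read 71.6, 80.6 and 86.5 TPM in the LC-DTR vehicle samples, 88.01, 51.8, 64.1 and 72.7 in the LC-DTR croton oil samples, 80.6, 83.1 and 81.7 in the LC-DTA vehicle samples and 47.3, 44.6, 56.02 and 62.4 in the LC-DTA croton oil samples. The LC-DTR groups overlapped (-0.22 ± 0.15, adjusted p = 0.227) and the LC-DTA groups did not (-0.64 ± 0.15, adjusted p = 0.002203). Wnt5a, the prototype non-canonical ligand, passed in LC-DTR. Wnt5a read 5.54, 4.57 and 5.8004 TPM in the LC-DTR vehicle samples, 4.24, 3.51, 3.64 and 3.67 in the LC-DTR croton oil samples, 5.98, 6.88 and 7.05 in the LC-DTA vehicle samples and 4.56, 5.78, 6.34 and 5.22 in the LC-DTA croton oil samples. Its difference was -0.40 ± 0.11 (adjusted p = 0.00743) in LC-DTR and -0.24 ± 0.11 (adjusted p = 0.0691) in LC-DTA. The difference between these responses did not pass the test for Wnt4 (-0.42 ± 0.21, adjusted p = 0.163) or Wnt5a (0.16 ± 0.15, adjusted p = 0.479). Single samples decided some of this: Wnt4 was called lower in LC-DTR without LC-DTR croton oil sample 1 (-0.34, adjusted p = 0.04704), its responses differed without LC-DTR croton oil sample 2 (-0.55, adjusted p = 0.04502) or samples 2 and 3 together (-0.65, adjusted p = 0.0211), and Wnt5a was called lower in LC-DTA without LC-DTA croton oil sample 3 (-0.31, adjusted p = 0.0332).

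Wnt16, a ligand made by keratinocytes, was the ligand that rose in LC-DTA. Wnt16 read 4.94, 7.24 and 7.45 TPM in the LC-DTR vehicle samples, 4.49, 4.72, 6.84 and 6.12 in the LC-DTR croton oil samples, 3.32, 2.704 and 3.77 in the LC-DTA vehicle samples and 8.396, 3.88, 4.06 and 6.13 in the LC-DTA croton oil samples. The difference was 0.59 ± 0.22 (adjusted p = 0.0304) in LC-DTA and -0.20 ± 0.22 (adjusted p = 0.452) in LC-DTR, and the responses differed by 0.79 ± 0.31 (adjusted p = 0.0757). The LC-DTA croton oil samples spread from 3.88 to 8.396 TPM. In LC-DTA, Wnt16 missed the threshold under 6 of 26 alternative settings (adjusted p = 0.0517 to 0.116), among them leaving out LC-DTA vehicle sample 1 or 2 or LC-DTA croton oil sample 1 or 4. The difference of its responses passed without LC-DTR vehicle sample 1 (0.96, adjusted p = 0.0427) or LC-DTA croton oil sample 2 (0.92, adjusted p = 0.0477).

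Wnt10a, whose loss in people disturbs hair, teeth and sweat glands, was the only tested member called in none of the 5 comparisons. Wnt10a read 45.8, 54.8 and 49.7 TPM in the LC-DTR vehicle samples, 53.7, 44.3, 49.8 and 52.6 in the LC-DTR croton oil samples, 51.1, 49.9 and 50.6 in the LC-DTA vehicle samples and 51.2, 42.9, 52.2 and 46.7 in the LC-DTA croton oil samples. Its response was 0.00012 ± 0.084 in LC-DTR, with a 95% interval of -0.18 to 0.18, and -0.069 ± 0.084 in LC-DTA, with an interval of -0.25 to 0.11. Wnt2 and Wnt2b, ligands low in these ears, did not pass in either croton oil comparison (-0.23 ± 0.16 and -0.28 ± 0.16 for Wnt2, -0.032 ± 0.14 and -0.076 ± 0.14 for Wnt2b). Wnt2 was called lower in LC-DTR without LC-DTR croton oil sample 1 (-0.36, adjusted p = 0.0414) and in LC-DTA with only the compared groups in the fit (-0.28, adjusted p = 0.0244).

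The ligand genes Wnt3, Wnt11 and Wnt9a responded differently in the genotypes by a test of the difference itself. The 250 bases before their RefSeq start (GRCm38.p6, all plus strand) are printed because these genes carry the sharpest contrasts between the genotypes, and that of Axin2, the pathway's feedback target, stands beside them for comparison. Capitals mark matches to CTTTGA, a core that TCF/LEF proteins bind, or to TGACTCA, the AP-1 site, on either strand; the motifs do not overlap. Wnt11 has a second listed start, whose window held neither motif. The genes lie at chr11:103774150-103817957, plus strand (Wnt3), chr7:98835112-98855195, plus strand (Wnt11), chr11:59306928-59333552, plus strand (Wnt9a) and chr11:108920349-108950783, plus strand (Axin2) in GENCODE M21, and the windows end at the base before the RefSeq start, which differs from the GENCODE start for Wnt3 and Wnt9a. The sequences run 5′ to 3′.
Wnt3 chr11:103773925-103774174: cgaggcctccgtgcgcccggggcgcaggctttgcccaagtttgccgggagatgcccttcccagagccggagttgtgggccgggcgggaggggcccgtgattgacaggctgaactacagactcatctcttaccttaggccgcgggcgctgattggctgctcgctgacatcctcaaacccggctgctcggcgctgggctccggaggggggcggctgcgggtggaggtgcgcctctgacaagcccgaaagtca
Wnt11 chr7:98834862-98835111: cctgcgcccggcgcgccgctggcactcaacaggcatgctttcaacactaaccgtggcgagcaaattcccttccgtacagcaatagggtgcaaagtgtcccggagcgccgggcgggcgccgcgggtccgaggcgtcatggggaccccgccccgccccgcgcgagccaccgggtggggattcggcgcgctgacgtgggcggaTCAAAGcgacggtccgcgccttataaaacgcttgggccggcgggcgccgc
Wnt9a chr11:59306680-59306929: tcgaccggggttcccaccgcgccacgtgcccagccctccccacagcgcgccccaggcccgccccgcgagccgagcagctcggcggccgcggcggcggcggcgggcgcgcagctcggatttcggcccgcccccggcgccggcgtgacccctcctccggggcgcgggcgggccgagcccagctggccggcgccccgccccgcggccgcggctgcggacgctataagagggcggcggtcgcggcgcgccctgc
Axin2 chr11:108920099-108920348: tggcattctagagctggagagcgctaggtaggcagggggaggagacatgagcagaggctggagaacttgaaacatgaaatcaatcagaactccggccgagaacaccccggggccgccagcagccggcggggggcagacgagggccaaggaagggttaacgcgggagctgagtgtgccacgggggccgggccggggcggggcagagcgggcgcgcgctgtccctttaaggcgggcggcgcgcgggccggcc

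The Wnt11 window held TCAAAG, the reverse complement of CTTTGA, with its first base 50 bases before the start, and the Wnt3, Wnt9a and Axin2 windows held neither motif. Of the 44 members, 28 matched the RefSeq table, with 31 windows; CTTTGA was in 4 of them (12.9%) and TGACTCA in 1 (3.23%). Over all 32851 windows of this length the shares were 13.8% and 4.46%. The members' windows had a median GC content of 68.0%, against 52.4% for all. A match is a run of letters and no evidence of binding.

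Wnt3, a canonical ligand of the hair shaft precursors, fell in LC-DTR and was not called in LC-DTA. Wnt3 read 25.8, 22.1 and 32.3 TPM in the LC-DTR vehicle samples, 9.37, 7.53, 10.4 and 8.04 in the LC-DTR croton oil samples, 26.2, 23.1 and 28.9 in the LC-DTA vehicle samples and 25.8, 21.4, 28.2 and 25.3 in the LC-DTA croton oil samples. All 4 LC-DTR croton oil samples lay below all other samples, which overlapped one another. The difference was -1.49 ± 0.14 (adjusted p = 3.36e-06) in LC-DTR. In LC-DTA it was -0.049 ± 0.14 (adjusted p = 0.776), with a 95% interval of -0.34 to 0.24. The responses differed by 1.44 ± 0.19 (adjusted p = 4.69e-04).

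Wnt11, a non-canonical ligand that guides cell movements in development, rose in LC-DTR and fell in LC-DTA. Wnt11 read 7.07, 5.09 and 6.12 TPM in the LC-DTR vehicle samples, 8.92, 10.2, 8.52 and 7.93 in the LC-DTR croton oil samples, 8.59, 10.6 and 10.8 in the LC-DTA vehicle samples and 3.38, 3.63, 3.56 and 3.55 in the LC-DTA croton oil samples. Within each genotype the groups did not overlap. The difference was 0.48 ± 0.11 (adjusted p = 0.00245) in LC-DTR and -1.27 ± 0.11 (adjusted p = 1.91e-06) in LC-DTA, and the responses differed by -1.76 ± 0.16 (adjusted p = 5.77e-05). Wnt11 was also higher in LC-DTA under vehicle (0.64 ± 0.12, adjusted p = 0.00243) and lower in LC-DTA after croton oil (-1.12 ± 0.10, adjusted p = 3.93e-06).

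Wnt9a, known from joint formation, fell in LC-DTA. Wnt9a read 5.18, 3.85 and 4.33 TPM in the LC-DTR vehicle samples, 3.62, 5.07, 3.86 and 3.06 in the LC-DTR croton oil samples, 6.48, 6.13 and 6.304 in the LC-DTA vehicle samples and 2.35, 2.55, 2.07 and 2.25 in the LC-DTA croton oil samples. The 4 LC-DTA croton oil samples were the lowest of all 14. The difference was -1.15 ± 0.12 (adjusted p = 7.20e-06) in LC-DTA and -0.16 ± 0.12 (adjusted p = 0.293) in LC-DTR, and the responses differed by -0.98 ± 0.17 (adjusted p = 0.00209). Without LC-DTR croton oil samples 2 and 3 together it was called lower in LC-DTR too (-0.32, adjusted p = 0.0363).

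Receptor genes fell in both genotypes, 7 of 12 with 1 rising in LC-DTR, and 9 of 12 with 0 rising in LC-DTA. These are 58.3% and 75%, against 29.5% and 34.5% of all genes. Fzd2 and Fzd7, related receptors that can carry canonical and non-canonical signals, fell most. Fzd2 read 11.01, 9.09 and 10.99 TPM in the LC-DTR vehicle samples, 3.16, 3.503, 5.81 and 2.81 in the LC-DTR croton oil samples, 14.03, 14.9 and 16.1 in the LC-DTA vehicle samples and 7.24, 6.05, 5.26 and 4.67 in the LC-DTA croton oil samples. Fzd2 dropped in every croton oil sample below every vehicle sample of its genotype (-1.27 ± 0.17, adjusted p = 6.94e-05 in LC-DTR and -1.25 ± 0.17, adjusted p = 4.94e-05 in LC-DTA). Fzd7 read 45.98, 32.6 and 31.8 TPM in the LC-DTR vehicle samples, 13.8, 16.7, 21.6 and 16.8 in the LC-DTR croton oil samples, 44.01, 45.7 and 43.5 in the LC-DTA vehicle samples and 23.02, 26.2, 24.1 and 22.6 in the LC-DTA croton oil samples. The groups were again apart (-1.05 ± 0.14, adjusted p = 4.53e-05 and -0.86 ± 0.14, adjusted p = 1.22e-04). Fzd1, of the same subfamily, passed in LC-DTA. Fzd1 read 57.8, 54.3 and 47.3 TPM in the LC-DTR vehicle samples, 47.2, 46.4, 49.9 and 42.9 in the LC-DTR croton oil samples, 58.2, 68.5 and 57.3 in the LC-DTA vehicle samples and 43.97, 44.2, 45.01 and 40.5 in the LC-DTA croton oil samples. Its difference was -0.18 ± 0.082 (adjusted p = 0.0752) in LC-DTR and -0.49 ± 0.082 (adjusted p = 2.17e-04) in LC-DTA.

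The coreceptor gene Lrp5, the most abundant receptor gene, fell by less. Lrp5 read 88.6, 89.6 and 86.98 TPM in the LC-DTR vehicle samples, 73.996, 77.5, 76.6 and 70.9 in the LC-DTR croton oil samples, 87.3, 96.99 and 89.2 in the LC-DTA vehicle samples and 67.4, 60.5, 58.6 and 61.6 in the LC-DTA croton oil samples. The vehicle samples lay above the croton oil samples in each genotype (-0.24 ± 0.058, adjusted p = 0.003804 in LC-DTR and -0.55 ± 0.058, adjusted p = 6.80e-06 in LC-DTA), and the responses differed by -0.31 ± 0.083 (adjusted p = 0.0176). Lrp6 read 44.4, 35.6 and 39.2 TPM in the LC-DTR vehicle samples, 37.4, 40.04, 39.6 and 37.6 in the LC-DTR croton oil samples, 45.05, 51.7 and 46.6 in the LC-DTA vehicle samples and 41.4, 43.7, 37.5 and 40.5 in the LC-DTA croton oil samples. Lrp6, the other coreceptor gene, was called lower in LC-DTA (-0.22 ± 0.078, adjusted p = 0.0239) and not in LC-DTR (-0.033 ± 0.078, adjusted p = 0.748).

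Fzd6 and Fzd3, receptors of planar polarity that pattern hair, fell in both genotypes. Fzd6 read 52.03, 61.2 and 51.5 TPM in the LC-DTR vehicle samples, 49.7, 45.3, 50.9 and 43.9 in the LC-DTR croton oil samples, 43.4, 40.9 and 43.9 in the LC-DTA vehicle samples and 38.9, 36.4, 34.7 and 35.5 in the LC-DTA croton oil samples. The difference was -0.20 ± 0.074 (adjusted p = 0.0334) in LC-DTR and -0.23 ± 0.074 (adjusted p = 0.0174) in LC-DTA. Fzd3 read 4.09, 3.098 and 3.08 TPM in the LC-DTR vehicle samples, 2.09, 2.86, 2.47 and 2.26 in the LC-DTR croton oil samples, 3.64, 3.71 and 3.77 in the LC-DTA vehicle samples and 2.06, 2.49, 2.02 and 2.53 in the LC-DTA croton oil samples. Fzd3 differed by -0.37 ± 0.11 (adjusted p = 0.010999) and -0.53 ± 0.11 (adjusted p = 9.02e-04). In LC-DTR, Fzd10 and Fzd8 fell as well. Fzd10 read 51.1, 61.2 and 77.7 TPM in the LC-DTR vehicle samples, 37.1, 38.2, 45.5 and 39.4 in the LC-DTR croton oil samples, 44.9, 49.6 and 39.2 in the LC-DTA vehicle samples and 38.1, 34.1, 38.3 and 33.8 in the LC-DTA croton oil samples. Fzd10 is related to Fzd4 and Fzd9 in sequence, and it differed by -0.63 ± 0.12 (adjusted p = 7.95e-04) in LC-DTR and -0.29 ± 0.12 (adjusted p = 0.0526) in LC-DTA. Fzd8 read 9.71, 8.78 and 9.66 TPM in the LC-DTR vehicle samples, 6.86, 7.89, 8.06 and 7.12 in the LC-DTR croton oil samples, 12.8, 11.2 and 12.1 in the LC-DTA vehicle samples and 11.8, 11.2, 12.04 and 8.79 in the LC-DTA croton oil samples. Fzd8, a canonical receptor close to Fzd5 in sequence, differed by -0.29 ± 0.10 (adjusted p = 0.0262) and -0.13 ± 0.10 (adjusted p = 0.276). The differences between the responses did not pass for Fzd1, Fzd8, Fzd10 or Lrp6 (adjusted p = 0.0739, 0.437, 0.169 and 0.225).

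Fzd5, Fzd4 and Fzd9 responded differently in the genotypes. Fzd5 was the receptor gene that rose in LC-DTR. Fzd5 read 7.005, 6.56 and 6.51 TPM in the LC-DTR vehicle samples, 7.803, 8.79, 8.23 and 9.002 in the LC-DTR croton oil samples, 7.24, 8.11 and 7.25 in the LC-DTA vehicle samples and 6.05, 6.37, 7.02 and 7.28 in the LC-DTA croton oil samples. The difference was 0.30 ± 0.082 (adjusted p = 0.00813) in LC-DTR and -0.15 ± 0.082 (adjusted p = 0.122) in LC-DTA, and the responses differed by -0.45 ± 0.12 (adjusted p = 0.0146). Fzd4, which also serves as the receptor of Norrin in vessels, fell in LC-DTA. Fzd4 read 12.5, 9.203 and 15.2 TPM in the LC-DTR vehicle samples, 14.2, 16.1, 14.6 and 12.4 in the LC-DTR croton oil samples, 17.2, 19.001 and 17.9 in the LC-DTA vehicle samples and 11.5, 13.1, 11.9 and 12.4 in the LC-DTA croton oil samples. Its LC-DTA vehicle samples were the highest of all 14 samples. The difference was 0.22 ± 0.13 (adjusted p = 0.162) in LC-DTR and -0.52 ± 0.13 (adjusted p = 0.00303) in LC-DTA, and the responses differed by -0.74 ± 0.18 (adjusted p = 0.0107). Fzd4 was called higher in LC-DTR without LC-DTR vehicle sample 3 (0.37, adjusted p = 0.0202). Endothelium markers moved beside it: of 8, 6 fell and 0 rose with croton oil in LC-DTA, against 2 and 2 in LC-DTR, and 3 had a lower difference of responses; their sums were 139 to 182 TPM in the LC-DTR vehicle samples, 148 to 189.9 after croton oil, 238 to 251 in the LC-DTA vehicle samples and 146 to 199 after croton oil. Over all genes, 34.5% fell in LC-DTA, 29.5% fell in LC-DTR and 12.6% had a lower difference of responses. The part of these markers in the Fzd4 result was not tested. Fzd9 read 32.9, 28.3 and 21.2 TPM in the LC-DTR vehicle samples, 28.5, 26.2, 28.6 and 26.4 in the LC-DTR croton oil samples, 21.7, 31.2 and 23.8 in the LC-DTA vehicle samples and 18.1, 18.1, 16.3 and 13.8 in the LC-DTA croton oil samples. Fzd9 fell in LC-DTA (-0.59 ± 0.14, adjusted p = 0.00306) and was not called in LC-DTR (0.019 ± 0.14, adjusted p = 0.924), and the responses differed by -0.61 ± 0.20 (adjusted p = 0.0441).

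Some of the smaller receptor calls did not hold in all alternative settings. In LC-DTR, Fzd3 missed the threshold without LC-DTR vehicle sample 1 (adjusted p = 0.0621). Fzd6 missed the threshold under 7 of 26 alternative settings (adjusted p = 0.0508 to 0.178), among them leaving out LC-DTR vehicle sample 2 or LC-DTR croton oil sample 2 or 4. Fzd8 missed the threshold under 7 of 26 alternative settings (adjusted p = 0.0626 to 0.142), among them leaving out LC-DTR vehicle sample 1 or 3 or LC-DTR croton oil sample 1 or 4. In LC-DTA, Fzd6 missed the threshold under 5 of 26 alternative settings (adjusted p = 0.05503 to 0.172), among them leaving out LC-DTA vehicle sample 1 or 3. Lrp6 missed the threshold under 5 of 26 alternative settings (adjusted p = 0.0623 to 0.174), among them leaving out LC-DTA vehicle sample 2 or LC-DTA croton oil sample 3. For the difference of the responses, Lrp5 missed the threshold under 3 of 25 alternative settings (adjusted p = 0.0549 to 0.0733), among them leaving out LC-DTA vehicle sample 2. Fzd9 missed the threshold under 14 of 25 alternative settings (adjusted p = 0.0513 to 0.147), among them leaving out LC-DTR vehicle sample 2 or 3 or LC-DTR croton oil sample 1 or 2 or 3 or 4 or LC-DTA vehicle sample 2 or 3 or LC-DTA croton oil sample 3 or 4. Other calls appeared only in an alternative setting. Fzd1 was called lower in LC-DTR without LC-DTR vehicle sample 3 (-0.26, adjusted p = 0.0202) or with quantile scaling (-0.24, adjusted p = 0.0211), and Fzd10 was called lower in LC-DTA under 5 settings (adjusted p = 0.0166 to 0.0487), among them leaving out LC-DTA vehicle sample 3, LC-DTR croton oil sample 3 or LC-DTR vehicle sample 1 or 3. Without LC-DTR vehicle sample 1 the responses differed for Fzd1 (-0.36, adjusted p = 0.0411) and Fzd10 (0.48, adjusted p = 0.0401). The LC-DTR value of Fzd6 was -0.12 (adjusted p = 0.178) without LC-DTR vehicle sample 2.

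Of the 9 tested antagonists, 3 fell and 1 rose in LC-DTR, and 7 fell and 1 rose in LC-DTA. The share that fell in LC-DTR, 33.3%, was near the 29.5% of all genes; in LC-DTA it was 77.8%, against 34.5%. Sostdc1 encodes a secreted inhibitor of Wnt and bone morphogenetic protein signals that is made in skin and tooth epithelium; the gene lies at chr12:36314139-36318452, plus strand (GRCm38). Sostdc1 read 40.6, 46.01 and 52.5 TPM in the LC-DTR vehicle samples, 3.86, 3.95, 7.74 and 3.43 in the LC-DTR croton oil samples, 46.2, 46.1 and 40.5 in the LC-DTA vehicle samples and 8.32, 5.82, 4.37 and 4.89 in the LC-DTA croton oil samples. It had the lowest log2 difference of all 14693 genes tested in each genotype, -3.09 ± 0.22 (adjusted p = 8.03e-07) in LC-DTR and -2.75 ± 0.22 (adjusted p = 1.07e-06) in LC-DTA. Its mean fell by 89.8% and 86.8%. LC-DTR croton oil sample 3 was the highest of its group and was still far below the vehicle samples.

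Sfrp1, a Wnt-binding antagonist, went the other way. Sfrp1 read 26.6, 29.2 and 28.7 TPM in the LC-DTR vehicle samples, 48.6, 39.3, 39.3 and 47.9 in the LC-DTR croton oil samples, 25.4, 30.4 and 23.6 in the LC-DTA vehicle samples and 52.4, 56.2, 59.5 and 58.5 in the LC-DTA croton oil samples. Every croton oil sample lay above every vehicle sample. It rose by 0.61 ± 0.097 (adjusted p = 1.96e-04) in LC-DTR and by 1.08 ± 0.097 (adjusted p = 2.41e-06) in LC-DTA, and the responses differed by 0.46 ± 0.14 (adjusted p = 0.0268). That difference missed the threshold under 7 of 25 alternative settings (adjusted p = 0.0511 to 0.101), among them leaving out LC-DTR vehicle sample 2 or 3 or LC-DTA vehicle sample 1 or 3 or LC-DTA croton oil sample 3.

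Sfrp2 and Sfrp4 encode related Wnt-binding antagonists that dermal fibroblasts make. Sfrp2 read 25.3, 16.3 and 48.7 TPM in the LC-DTR vehicle samples, 10.5, 12.8, 13.3 and 9.71 in the LC-DTR croton oil samples, 75.2, 74.01 and 71.4 in the LC-DTA vehicle samples and 50.97, 44.2, 36.1 and 39.4 in the LC-DTA croton oil samples. LC-DTR vehicle sample 3 was the highest of its group. Sfrp2 fell after croton oil, by 1.18 (SE 0.25, adjusted p = 0.00152) in LC-DTR and 0.78 (SE 0.25, adjusted p = 0.0155) in LC-DTA. Without LC-DTR vehicle sample 3 the LC-DTR value was -0.77 (adjusted p = 0.00274), about that of LC-DTA. In LC-DTA, Sfrp2 missed the threshold without LC-DTA croton oil samples 3 and 4 together (adjusted p = 0.116). Sfrp4 read 0.432, 0.457 and 2.12 TPM in the LC-DTR vehicle samples, 0.635, 0.647, 0.597 and 0.361 in the LC-DTR croton oil samples, 4.28, 4.31 and 3.31 in the LC-DTA vehicle samples and 2.57, 4.29, 3.61 and 2.28 in the LC-DTA croton oil samples. Sfrp4 was under 1 TPM in all LC-DTR samples except vehicle sample 3, and its response did not pass in LC-DTR (-0.26 ± 0.24, adjusted p = 0.376) or LC-DTA (-0.27 ± 0.24, adjusted p = 0.355).

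Wif1, which binds Wnts outside the cell, varied widely within groups. Wif1 read 229.98, 143 and 121 TPM in the LC-DTR vehicle samples, 152, 102, 128 and 116 in the LC-DTR croton oil samples, 209.6, 298 and 209.95 in the LC-DTA vehicle samples and 85.2, 144, 145 and 133 in the LC-DTA croton oil samples. In LC-DTA the vehicle samples lay above the croton oil samples (-0.92 ± 0.23, adjusted p = 0.00334), and in LC-DTR the groups overlapped (-0.36 ± 0.23, adjusted p = 0.206). Dkk3, a divergent Dickkopf member that does not act on Lrp6 as its relatives do, fell in both. Dkk3 read 86.4, 65.4 and 80.7 TPM in the LC-DTR vehicle samples, 55.3, 58.6, 60.9 and 47.05 in the LC-DTR croton oil samples, 102, 102 and 102 in the LC-DTA vehicle samples and 63.9, 70.97, 59.9 and 65.8 in the LC-DTA croton oil samples. Its difference was -0.47 ± 0.099 (adjusted p = 0.00138) and -0.64 ± 0.099 (adjusted p = 1.02e-04).

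Dkk2, Sfrp5 and Notum were called lower in LC-DTA. Dkk2 read 12.5, 6.38 and 11.03 TPM in the LC-DTR vehicle samples, 9.24, 7.95, 8.21 and 6.87 in the LC-DTR croton oil samples, 18.5, 26.98 and 24.3 in the LC-DTA vehicle samples and 12.98, 15.7, 14.4 and 13.9 in the LC-DTA croton oil samples. Dkk2, a ligand of Lrp6, differed by -0.66 ± 0.18 (adjusted p = 0.00596) in LC-DTA and -0.23 ± 0.18 (adjusted p = 0.2898) in LC-DTR. Sfrp5 read 5.85, 4.89 and 3.81 TPM in the LC-DTR vehicle samples, 4.59, 3.68, 5.03 and 3.65 in the LC-DTR croton oil samples, 8.43, 8.25 and 9.43 in the LC-DTA vehicle samples and 5.72, 6.695, 6.11 and 4.81 in the LC-DTA croton oil samples. Sfrp5, another Wnt-binding antagonist, differed by -0.51 ± 0.14 (adjusted p = 0.00523) and -0.15 ± 0.14 (adjusted p = 0.361). Notum read 5.71, 2.896 and 2.49 TPM in the LC-DTR vehicle samples, 3.54, 2.98, 2.22 and 2.63 in the LC-DTR croton oil samples, 3.88, 7.41 and 5.14 in the LC-DTA vehicle samples and 2.16, 2.45, 3.14 and 2.65 in the LC-DTA croton oil samples. Notum, the enzyme that strips the Wnt lipid, differed by -0.82 ± 0.22 (adjusted p = 0.00565) and -0.24 ± 0.22 (adjusted p = 0.379). The differences between the responses did not pass for Dkk2, Sfrp5, Notum or Wif1 (adjusted p = 0.236, 0.191, 0.192 and 0.218). Dkk2 was called lower in LC-DTR as well without LC-DTR vehicle sample 2 (-0.50, adjusted p = 0.0105). Without LC-DTR vehicle sample 1, which had the highest Notum of its group, the Notum responses differed (-0.87, adjusted p = 0.0289).

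Axin2, the scaffold of the destruction complex that canonical Wnt signalling induces, is the usual readout of that signalling. Axin2 read 45.7, 42.4 and 34.1 TPM in the LC-DTR vehicle samples, 21.3, 23.9, 28.01 and 17.6 in the LC-DTR croton oil samples, 28.3, 36.7 and 29.8 in the LC-DTA vehicle samples and 14.2, 12.5, 14.4 and 11.1 in the LC-DTA croton oil samples. Within each genotype the groups did not overlap. Axin2 fell by 0.83 (SE 0.15, adjusted p = 4.60e-04) in LC-DTR and 1.21 (SE 0.15, adjusted p = 1.67e-05) in LC-DTA, a difference of responses of -0.39 ± 0.21 (adjusted p = 0.195). After croton oil all 4 LC-DTA samples were below all 4 LC-DTR samples (-0.74 ± 0.14, adjusted p = 5.27e-04).

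Other genes of the pathway are given from lists, with the counts called in each croton oil comparison. Over all genes, 29.5% fell in LC-DTR and 34.5% in LC-DTA. Some genes stand in more than 1 list, so the counts are not independent. The target list shares Apcdd1 with the other inhibitors, Lgr5, Rnf43 and Znrf3 with the R-spondin list, and Lef1 and Tcf7 with the TCF/LEF list. Of 20 tested canonical target genes, 2 rose and 12 fell in LC-DTR and 1 rose and 14 fell in LC-DTA, so 60% and 70% fell, with medians of -0.57 and -0.80 on the log2 scale; Axin2 and Notum are among them. Apcdd1, a membrane inhibitor of the pathway, was 75.97 TPM on average in LC-DTR vehicle samples and 23.1 TPM after croton oil, with differences of -1.75 ± 0.23 in LC-DTR and -2.0 ± 0.23 in LC-DTA. Ascl2, a transcription factor, and Nkd1 and Nkd2, which bind Dishevelled, also fell, with values for Ascl2 (-1.64 ± 0.15 in LC-DTR and -1.72 ± 0.15 in LC-DTA), Nkd1 (-0.92 ± 0.12 in LC-DTR and -1.34 ± 0.12 in LC-DTA) and Nkd2 (-1.49 ± 0.20 in LC-DTR and -0.82 ± 0.20 in LC-DTA). So did the receptor-clearing ligase Rnf43 (-0.85 ± 0.10 in LC-DTR and -0.96 ± 0.10 in LC-DTA). Myc, a growth regulator with many inputs besides Wnt, rose (1.301 ± 0.14 in LC-DTR and 0.97 ± 0.14 in LC-DTA). Tcf7 rose in LC-DTR (0.33 ± 0.11, adjusted p = 0.02003) and was not called in LC-DTA (-0.0025 ± 0.11, adjusted p = 0.986), and the difference of its responses did not pass (adjusted p = 0.129). Ccnd1, the cyclin D1 gene, fell in LC-DTR (-1.05 ± 0.18, adjusted p = 2.92e-04) and was not called in LC-DTA (-0.17 ± 0.18, adjusted p = 0.415), and its responses differed by 0.88 ± 0.25 (adjusted p = 0.0226).

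Both tested genes of Wnt secretion fell in each genotype, Wls, the carrier that brings Wnts to the cell surface (-0.59 ± 0.071 and -0.40 ± 0.071), and Porcn, which attaches the lipid (-0.32 ± 0.12 and -0.63 ± 0.12). The R-spondin list holds R-spondins and their Lgr receptors, which raise Wnt receptor levels, and the ligases Rnf43 and Znrf3, which clear Wnt receptors. Of its 8 tested genes, 6 fell in LC-DTR and 7 in LC-DTA (75% and 87.5%) and 0 rose. Examples are Lgr4 (-0.58 ± 0.084 in LC-DTR and -0.56 ± 0.084 in LC-DTA), Znrf3 (-0.68 ± 0.092 in LC-DTR and -0.33 ± 0.092 in LC-DTA) and Rspo3 (-0.91 ± 0.13 in LC-DTR and -0.51 ± 0.13 in LC-DTA). Of 9 other extracellular and membrane inhibitors, 7 fell in each genotype (77.8%) and 0 rose, among them Dkkl1 (-0.34 ± 0.087 in LC-DTR and -0.64 ± 0.087 in LC-DTA), Igfbp4 (-0.60 ± 0.15 in LC-DTR and -0.60 ± 0.15 in LC-DTA) and Kremen1 (-0.25 ± 0.074 in LC-DTR and -0.75 ± 0.074 in LC-DTA). Of 15 genes of non-canonical receptors and planar polarity, 11 fell in each (73.3%), with 1 rising in LC-DTR and 0 in LC-DTA; Fzd3 and Fzd6 are among them. Vangl2, a core polarity gene, fell in both (-1.16 ± 0.16 in LC-DTR and -1.26 ± 0.16 in LC-DTA). Prickle1, another polarity gene, rose in LC-DTR and fell in LC-DTA (0.32 ± 0.088 in LC-DTR and -0.51 ± 0.088 in LC-DTA).

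The intracellular lists had calls in both directions in LC-DTR. Of 17 destruction complex and Dishevelled genes, 4 rose and 4 fell in LC-DTR and 3 rose and 10 fell in LC-DTA (23.5% and 58.8% fell), with medians of -0.017 and -0.29. The kinase gene Csnk1a1 rose (0.33 ± 0.047 in LC-DTR and 0.38 ± 0.047 in LC-DTA), as did Tnks2, whose enzyme marks Axin for loss (0.41 ± 0.079 in LC-DTR and 0.26 ± 0.079 in LC-DTA). The Dishevelled gene Dvl2 fell (-0.59 ± 0.11 in LC-DTR and -0.52 ± 0.11 in LC-DTA). Ctnnb1, which encodes beta-catenin, differed by -0.058 ± 0.047 (adjusted p = 0.324) in LC-DTR and -0.13 ± 0.047 (adjusted p = 0.0278) in LC-DTA. Of 12 TCF/LEF and nuclear cofactor genes, 3 rose and 6 fell in LC-DTR, and 0 rose and 6 fell in LC-DTA (50% fell in each). The beta-catenin cofactor Bcl9l fell (-0.99 ± 0.15 in LC-DTR and -1.63 ± 0.15 in LC-DTA). The corepressor gene Tle3 rose in LC-DTR (0.48 ± 0.061, adjusted p = 3.65e-05) and was not called in LC-DTA (0.13 ± 0.061, adjusted p = 0.0818), and its responses differed by -0.35 ± 0.086 (adjusted p = 0.01097).

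**Figure D4:**
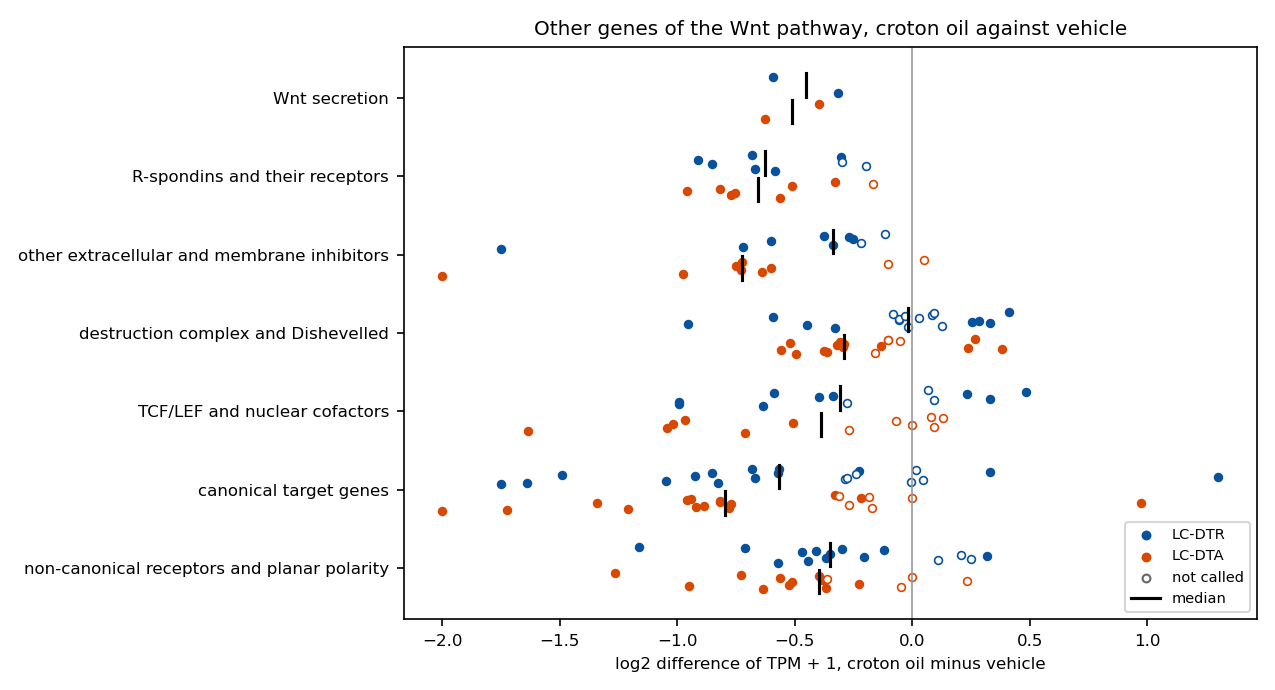
Difference of log2(TPM + 1), croton oil minus vehicle, for each tested gene of the pathway lists in LC-DTR and LC-DTA. Each point is a gene, open points were not called and black bars are medians. The points of the Wnt secretion and R-spondin lists all lie below 0, and the destruction complex list lies on both sides.

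Markers of some cell types in the ear are given here for the croton oil response. Over all genes, 29.5% fell and 22.1% rose in LC-DTR, and 34.5% fell and 24.2% rose in LC-DTA. Of 9 fibroblast markers, 0 fell and 1 rose in LC-DTR, and 4 fell and 0 rose in LC-DTA. Of 6 skeletal muscle markers, 0 were called in LC-DTR and 2 fell in LC-DTA. Of 6 adipocyte markers, 1 fell in LC-DTR and 0 were called in LC-DTA. Of 10 epidermis markers, 7 fell and 1 rose in LC-DTR and 5 fell and 2 rose in LC-DTA; their summed level was 37430 to 44210 TPM in the LC-DTR vehicle samples, 23704 to 30295 after croton oil, 32675 to 34062 in the LC-DTA vehicle samples and 26597 to 29761 after croton oil. Of 11 tested hair follicle markers, 6 fell in each genotype and 1 rose in LC-DTR; the sums were 1244 to 1346 TPM in the LC-DTR vehicle samples, 994 to 1187 after croton oil, 1205 to 1483 in the LC-DTA vehicle samples and 1175 to 1684 after croton oil, with Krt35, Krt85 and Padi3 under 1 TPM in all samples. Of 5 tested dermal papilla markers, 2 fell and 1 rose in LC-DTR and 5 fell in LC-DTA. Of 6 tested neutrophil markers, 5 rose in each genotype; the sums were 26.6 to 69.9 TPM in the LC-DTR vehicle samples, 259.9 to 764 after croton oil, 35.2 to 66.6 in the LC-DTA vehicle samples and 436 to 664 after croton oil. No marker of these lists was at 0 in all samples. The part of these markers in the Wnt results was not tested.

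Under vehicle, 13 of 36 members were higher in LC-DTA than in LC-DTR ears and 4 were lower. Over all genes tested, 24.5% were called, 19.1% higher and 5.34% lower, against 36.1% and 11.1% of the members. The median log2 difference was 0.23 for the members and 0.097 for all genes. The groups did not overlap for any of the 17 called. Without regard to the test, they did not overlap for 21 of the 36 members and for 42.5% of all genes. Scaling the samples by median ratios or by quantiles moved the median of all genes from 0.097 to -0.013 and -0.014 and each gave 9 higher and 6 lower, so the share of calls that were higher was 60.0% in place of 76.5%. Without LC-DTR vehicle sample 2 the number higher was 8, and without LC-DTR vehicle sample 3 the number lower was 2.

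Antagonists made up 5 of the 13, and 0 of the 4. Sfrp2 and Sfrp4 differed most, by 1.398 ± 0.27 (adjusted p = 0.00285) and 1.404 ± 0.26 (adjusted p = 0.00218). Dkk2 was higher by 1.18 ± 0.19 (adjusted p = 0.00122), Sfrp5 by 0.74 ± 0.14 (adjusted p = 0.00307) and Dkk3 by 0.40 ± 0.11 (adjusted p = 0.0139). All 3 LC-DTA vehicle samples exceeded all 3 LC-DTR vehicle samples for each of these. Of the ligands, Wnt11 (0.64 ± 0.12), Wnt5b (0.63 ± 0.13), Wnt2b (0.61 ± 0.15), Wnt2 (0.54 ± 0.17) and Wnt9a (0.43 ± 0.13) were higher. Wnt2b read 1.74, 1.47 and 1.76 TPM in the LC-DTR vehicle samples, 1.87, 1.71, 1.51 and 1.33 in the LC-DTR croton oil samples, 2.23, 3.98 and 3.14 in the LC-DTA vehicle samples and 2.37, 2.91, 2.78 and 3.401 in the LC-DTA croton oil samples. Wnt2 read 1.46, 0.874 and 1.75 TPM in the LC-DTR vehicle samples, 1.66, 0.661, 0.964 and 0.833 in the LC-DTR croton oil samples, 2.57, 2.14 and 2.47 in the LC-DTA vehicle samples and 1.803, 1.72, 2.004 and 1.64 in the LC-DTA croton oil samples. Both stayed low in absolute level. Of the receptors, Fzd4 (0.54 ± 0.14), Fzd8 (0.33 ± 0.11) and Lrp6 (0.26 ± 0.083) were higher.

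The 4 members lower in LC-DTA under vehicle were Wnt16 (-0.81 ± 0.23, adjusted p = 0.0208), Wnt10b (-0.76 ± 0.16, adjusted p = 0.00541), Fzd10 (-0.48 ± 0.13, adjusted p = 0.0161) and Fzd6 (-0.35 ± 0.079, adjusted p = 0.00681). Calls under vehicle that were lost in an alternative setting were these. Dkk3 missed the threshold without LC-DTR vehicle sample 2 (adjusted p = 0.0757). Wnt2 missed the threshold under 7 of 25 alternative settings (adjusted p = 0.0503 to 0.1597), among them leaving out LC-DTR vehicle sample 2 or LC-DTA vehicle sample 1 or 3. Wnt9a missed the threshold under 7 of 26 alternative settings (adjusted p = 0.0608 to 0.172), among them leaving out LC-DTR vehicle sample 2 or 3 or LC-DTA vehicle sample 1 or 2 or 3. Wnt16 missed the threshold without LC-DTR vehicle sample 2 or 3 or LC-DTA vehicle sample 2 (adjusted p = 0.0585 to 0.0849). Fzd4 missed the threshold with only the compared groups in the fit (adjusted p = 0.0536). Fzd8 missed the threshold under 10 of 26 alternative settings (adjusted p = 0.0537 to 0.349), among them leaving out LC-DTR vehicle sample 1 or 2 or 3 or LC-DTA vehicle sample 1 or 2 or 3 or LC-DTA croton oil sample 2. Fzd10 missed the threshold under 3 of 26 alternative settings (adjusted p = 0.0522 to 0.0786), among them leaving out LC-DTR vehicle sample 3 or LC-DTA vehicle sample 3. Lrp6 missed the threshold under 8 of 26 alternative settings (adjusted p = 0.0649 to 0.164), among them leaving out LC-DTR vehicle sample 2 or 3 or LC-DTA vehicle sample 2 or 3. Calls gained were as follows. Without LC-DTR vehicle sample 1, Notum (0.78, adjusted p = 0.0158), Wif1 (0.84, adjusted p = 0.0186) and Fzd7 (0.45, adjusted p = 0.02597) were called higher in LC-DTA. Fzd2 was called higher under 4 settings (adjusted p = 0.0163 to 0.0252), among them leaving out LC-DTR croton oil sample 3. Wnt7b was called lower under 6 (adjusted p = 0.0126 to 0.04197), among them both scalings and leaving out LC-DTR croton oil sample 3 or 4. Axin2 was called lower with both scalings (adjusted p = 0.0374 to 0.0389).

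**Figure D5:**
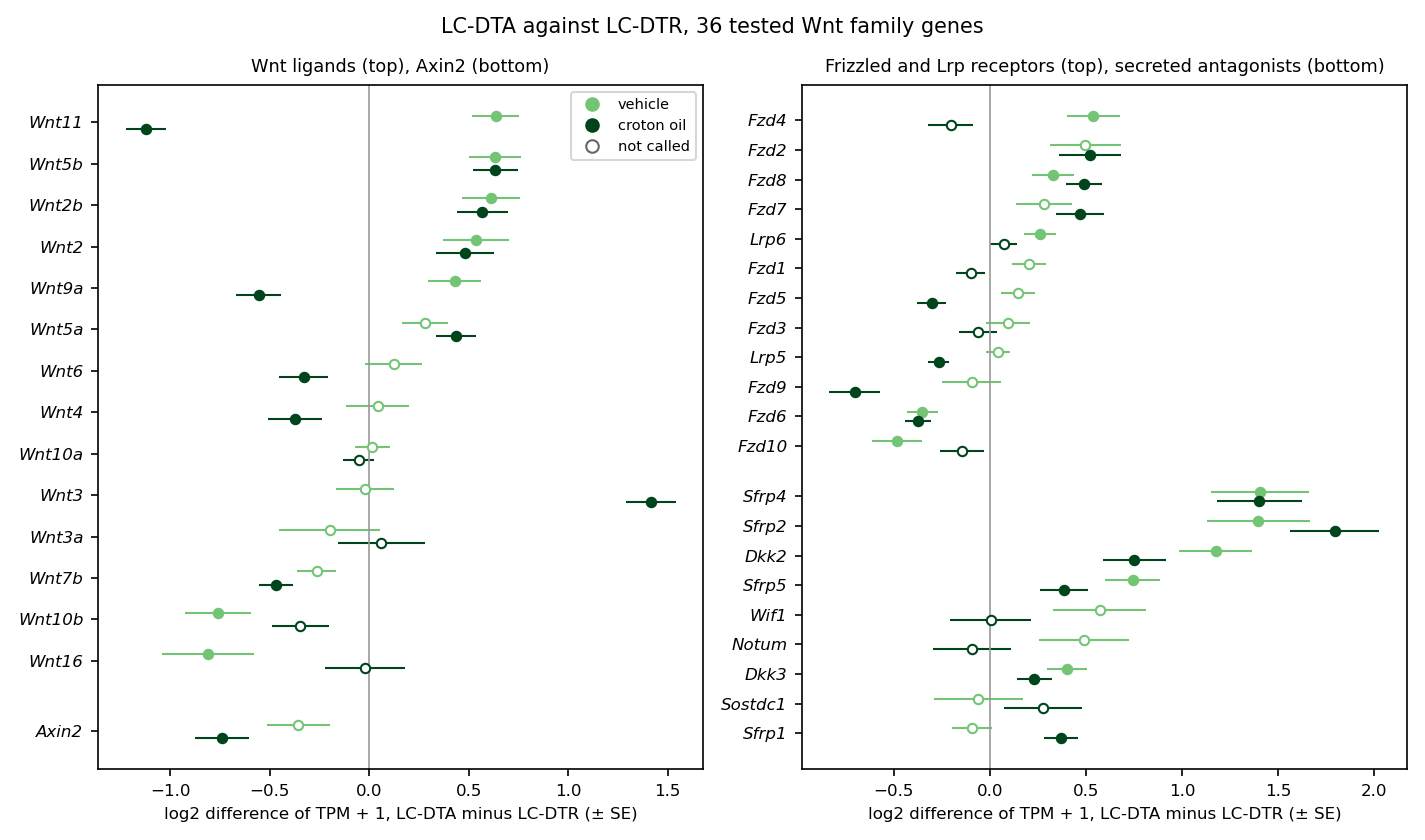
Difference of log2(TPM + 1), LC-DTA minus LC-DTR, for the 36 tested members under vehicle and after croton oil. Points are fitted differences, bars are ± SE, and open points were not called. Sfrp2, Sfrp4 and Dkk2 lie above 0 under both treatments, and Wnt3 and Wnt11 lie far from 0 in opposite directions after croton oil.

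After croton oil, 14 of 36 members were higher in LC-DTA and 10 lower. Over all genes 52.3% were called, 34.3% higher and 18.0% lower, against 38.9% and 27.8% of the members. The medians were -0.0078 for the members and 0.093 for all genes. Of the 24 called, 19 had groups that did not overlap, and the exceptions were Dkk3, Fzd2, Sfrp5, Wnt2 and Wnt4. Without regard to the test, the groups did not overlap for 19 of the 36 members and for 45.2% of all genes. The split was 13 higher and 13 lower with median-ratio scaling and 10 and 13 with quantile scaling, so the share higher went from 58.3% to 50% and 43.5%.

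Again 6 of 9 antagonists were higher and 0 lower. Sfrp2 was higher by 1.796 ± 0.23 (adjusted p = 4.03e-05), Sfrp4 by 1.402 ± 0.22 (adjusted p = 1.74e-04), Dkk2 by 0.75 ± 0.16 (adjusted p = 0.00183) and Sfrp1 by 0.37 ± 0.090 (adjusted p = 0.00356); Sfrp5 (0.39 ± 0.13) and Dkk3 (0.23 ± 0.091) passed as well. Among the ligands Wnt3 stood highest (1.42 ± 0.13, adjusted p = 3.34e-06), and Wnt5b (0.63 ± 0.11), Wnt2b (0.57 ± 0.13), Wnt2 (0.48 ± 0.14) and Wnt5a (0.44 ± 0.10) were higher. Wnt11 was lower (-1.12 ± 0.10, adjusted p = 3.93e-06), as were Wnt9a (-0.56 ± 0.11), Wnt7b (-0.47 ± 0.085), Wnt4 (-0.37 ± 0.14) and Wnt6 (-0.33 ± 0.12). Among the receptors Fzd2 (0.52 ± 0.16), Fzd8 (0.49 ± 0.094) and Fzd7 (0.47 ± 0.13) were higher, and Fzd9 (-0.70 ± 0.13), Fzd6 (-0.37 ± 0.069), Fzd5 (-0.30 ± 0.076) and Lrp5 (-0.27 ± 0.054) were lower.

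Calls after croton oil that were lost in an alternative setting were these. Wnt2 missed the threshold with quantile scaling, without LC-DTA croton oil samples 3 and 4 together and without LC-DTR croton oil samples 2 and 3 together (adjusted p = 0.0568 to 0.126). Wnt4 missed the threshold under 6 of 26 alternative settings (adjusted p = 0.05399 to 0.106), among them leaving out LC-DTR croton oil sample 1 or 4 or LC-DTA croton oil sample 1 or 2. Wnt6 missed the threshold under 12 of 26 alternative settings (adjusted p = 0.0505 to 0.183), among them leaving out LC-DTR croton oil sample 2 or LC-DTA croton oil sample 1 or 2 or 3 or 4. Fzd2 missed the threshold under 2 of 26 alternative settings (adjusted p = 0.0512 to 0.0836), among them leaving out LC-DTR croton oil sample 4. Sfrp1 missed the threshold without LC-DTR croton oil samples 2 and 3 together (adjusted p = 0.0638). Sfrp5 missed the threshold under 4 of 26 alternative settings (adjusted p = 0.0574 to 0.222), among them leaving out LC-DTR croton oil sample 2 or 4 or LC-DTA croton oil sample 2. Dkk3 missed the threshold under 14 of 26 alternative settings (adjusted p = 0.05603 to 0.148), among them leaving out LC-DTR croton oil sample 1 or 4 or LC-DTA vehicle sample 1 or 2 or 3 or LC-DTA croton oil sample 1 or 2 or 4. The Wnt6 difference was -0.19 (adjusted p = 0.106) without LC-DTR croton oil sample 2. Calls gained were as follows. Wnt10b was called lower in LC-DTA under 8 settings (adjusted p = 0.01398 to 0.0488), among them both scalings and leaving out LC-DTA croton oil sample 1 or LC-DTR croton oil sample 1 or 4. Sostdc1 was called higher without LC-DTR croton oil sample 3 (0.50, adjusted p = 0.0182) or samples 2 and 3 together (0.53, adjusted p = 0.0324). Under scaling, Fzd4 (adjusted p = 0.0161 to 0.0342) was called lower by both methods, Fzd1 by median ratios (-0.19, adjusted p = 0.0369) and Fzd3 by quantiles (-0.24, adjusted p = 0.0309).

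Marker lists were also compared between the genotypes. Over all genes tested, 19.1% were higher and 5.34% lower in LC-DTA under vehicle. After croton oil the shares were 34.3% and 18.0%. Of 9 fibroblast markers, 8 were higher in LC-DTA under vehicle and 7 after croton oil, and 0 were lower. Their summed level was 2329 to 5249 TPM in the LC-DTR vehicle samples, 2394 to 3465 after croton oil, 7510.2 to 9337 in the LC-DTA vehicle samples and 4883 to 6506 after croton oil. LC-DTR vehicle sample 3, which had the highest Sfrp2 and Sfrp4 of its group, also had its highest fibroblast sum. All 10 cycling cell markers were higher in LC-DTA than in LC-DTR after croton oil. With croton oil 9 of them fell and 0 rose in LC-DTR, and 4 rose and 0 fell in LC-DTA. The sums were 243 to 345 TPM in the LC-DTR vehicle samples, 191 to 203 after croton oil, 270.3 to 299.8 in the LC-DTA vehicle samples and 357 to 401 after croton oil. Of 7 tested mast cell markers, 6 were higher and 0 lower in LC-DTA under vehicle, and 5 were higher and 0 lower after croton oil; the sums were 202 to 299.6 TPM in the LC-DTR vehicle samples, 181 to 294 after croton oil, 395 to 603 in the LC-DTA vehicle samples and 364 to 464 after croton oil. Of 8 tested monocyte and macrophage markers, 6 were higher and 0 lower in LC-DTA under vehicle, and 6 were higher and 0 lower after croton oil; the sums were 153 to 229 TPM in the LC-DTR vehicle samples, 209 to 287 after croton oil, 324 to 405 in the LC-DTA vehicle samples and 389 to 481 after croton oil. Of 7 tested smooth muscle and pericyte markers, 5 were higher and 0 lower in LC-DTA under vehicle, and 4 were higher and 0 lower after croton oil; the sums were 148 to 182 TPM in the LC-DTR vehicle samples, 97.96 to 138 after croton oil, 219 to 261 in the LC-DTA vehicle samples and 154 to 202 after croton oil. Of 6 tested Schwann cell and nerve markers, 4 were higher and 0 lower in LC-DTA under vehicle. After croton oil 2 were higher and 0 lower, and 2 of 6 is near the 34.3% of all genes. The sums were 213 to 326 TPM in the LC-DTR vehicle samples, 191 to 259 after croton oil, 416 to 526 in the LC-DTA vehicle samples and 254 to 330.1 after croton oil. Of 8 tested cartilage markers, 4 were higher and 0 lower in LC-DTA under vehicle, and 4 were higher and 1 lower after croton oil. The sums were 207 to 326 TPM in the LC-DTR vehicle samples, 174 to 290.04 after croton oil, 275 to 350.2 in the LC-DTA vehicle samples and 129.6 to 205 after croton oil. After croton oil the mean cartilage sum was thus lower in LC-DTA (172 TPM) than in LC-DTR (225 TPM), against most of the calls. Under vehicle 3 of 10 epidermis markers were lower in LC-DTA and 0 higher, and 3 of 8 endothelium and 3 of 5 dermal papilla markers were higher and 0 lower. Of the T cell and Langerhans cell lists, 2 of 4 each were higher and 0 lower under vehicle. Cd207, which defines Langerhans cells, was below the filter and is not among the 4 tested. It reached 0.474 TPM in LC-DTR vehicle samples and 0.654 TPM in LC-DTA vehicle samples. After croton oil Cd207 ranged from 0.362 to 1.88 TPM in LC-DTR and from 0.405 to 0.722 TPM in LC-DTA. Adipocyte and skeletal muscle lists (6 each) had 0 calls under vehicle, the sebaceous gland list 1 lower of 7, the hair follicle list 1 higher of 11 and the neutrophil list 0 of 6. No marker of any list was at 0 in all samples. The part of these markers in the Wnt results was not tested.

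The difference of the croton oil responses between genotypes passed for 8 of 36 members (22.2%), 2 higher and 6 lower in LC-DTA minus LC-DTR; over all genes tested 23.1% passed, 10.5% higher and 12.6% lower, so the members' share was near the background. The 8 were Wnt11, Wnt3, Wnt9a, Fzd4, Fzd5, Lrp5, Sfrp1 and Fzd9, whose values are given with each gene. Without LC-DTA croton oil samples 3 and 4 together, or without LC-DTR vehicle sample 2 or 3, LC-DTA vehicle sample 1 or 3 or LC-DTA croton oil sample 3, 1 member passed in the higher direction, Wnt3, and without LC-DTR vehicle sample 1, 4 did, with Fzd10 and Wnt16 added; Fzd1 and Notum were then added in the lower direction. Wnt10b passed higher without LC-DTR croton oil samples 2 and 3 together (0.69, adjusted p = 0.01799) and with a pseudocount of 5 (0.27, adjusted p = 0.0434).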

How the data were processed

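The authors deposited TPM, 1 value per gene and sample, for 14 ear samples grouped by the labels; 0 sample columns were left without a sample. Per the labels' protocols, RNA came from a Qiagen RNeasy kit and libraries from the Illumina TruSeq Stranded mRNA kit. Build mm10 and the tools HISAT2, featureCounts, Subread and cutadapt are named in the submitters' processing notes. For the steps from counts to TPM, the annotation and the strand setting, nothing is given in the sources used here. Since TPM hold no depth, no counting error is given. Of 24062 rows, 27 named as dates (0.124 to 0.145% of TPM) were left out. Genes with at least 1 TPM in at least 3 samples (14693) were fitted on log2(TPM + 1) with limma 3.58.1 in R 4.3.3, with 4 group means, 5 comparisons and a mean-variance trend, with two-sided p-values and Benjamini-Hochberg adjustment over all genes of a comparison. The fit was tested on simulated data. Python 3.11.15, pandas 2.3.3 and matplotlib 3.10.9 were used.

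The members, gene lists and tests were chosen with earlier results of these data known. By the naming rule every member is accounted for, members called in 1 or more comparisons are given in every sample, and of each pathway list up to 4 genes with the lowest p in a croton oil comparison, and called genes moving against most of the list, were open to naming; Ccnd1, Ctnnb1 and Nkd2 were named outside the rule, after their values were seen. Of the 17 marker lists only sums and counts are given. Promoter windows are RefSeq's (GRCm38.p6). Alternatives were other pseudocounts, filters, scalings and variance settings, a replicate block, only the compared groups, and samples left out singly or in pairs. The pairs were LC-DTA croton oil 3 and 4, whose label numbers lie apart from the rest of their group, and LC-DTR croton oil 2 and 3, which lay apart in an earlier analysis. All LC-DTA label numbers (10575 to 10797) were below all LC-DTR ones (10825 to 11098). The LC-DTR croton oil samples ran from 10851 to 10854. What the numbers record is not stated.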

Additional observations from a re-analysis of the deposited data

Results flagged for a closer look

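Samples that stood apart were looked for in the croton oil groups of 4, over 72 pairs of a member and a group, by the gap to the nearest other sample as a share of the group's range (Dixon's test at its 95% critical value). Chance alone marks about 1 group in 20, and 2 were marked. Sostdc1 was 7.74 TPM in LC-DTR croton oil sample 3, with the others at 3.43 to 3.95 TPM. Wnt6 was 3.52 TPM in LC-DTR croton oil sample 2, with the others at 1.91 to 2.16 TPM.

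The croton oil response differed between LC-DTA and LC-DTR for 8 members by limma's test of the difference itself. The difference, LC-DTA minus LC-DTR, was -1.76 (SE 0.16, adjusted p = 5.77e-05) for Wnt11, 1.44 (SE 0.19, adjusted p = 4.69e-04) for Wnt3 and -0.98 (SE 0.17, adjusted p = 0.00209) for Wnt9a. It was -0.74 (SE 0.18, adjusted p = 0.0107) for Fzd4, -0.45 (SE 0.12, adjusted p = 0.0146) for Fzd5, -0.61 (SE 0.20, adjusted p = 0.0441) for Fzd9 and -0.31 (SE 0.083, adjusted p = 0.0176) for Lrp5. For Sfrp1 it was 0.46 (SE 0.14, adjusted p = 0.0268). In Wnt11 the groups moved in opposite directions, and in Sfrp1 both rose.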

How the results depend on the processing

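Of 97 calls of a member in a comparison, 72 held under every alternative run, 25 missed the threshold under 1 or more, and 0 changed sign. Another 26 pairs of a member and a comparison, not called as reported, were called under 1 or more alternatives, 6 of them in LC-DTR after croton oil, 3 in LC-DTA, 6 between genotypes under vehicle, 5 after croton oil and 6 for the difference of the responses. The numbers called lower after croton oil were 16 to 19 in LC-DTR and 22 to 27 in LC-DTA over all alternatives, against 18 and 25. The number higher after croton oil in LC-DTA fell from 2 to 1 without a filter on low values and with a replicate block, and was 1 to 2 with single samples left out, Wnt16 being the member lost. Under vehicle the number higher in LC-DTA was 8 to 15 with single samples left out, against 13, and the number lower was 2 to 5, against 4. For the difference of the responses the number higher was 1 without LC-DTA croton oil samples 3 and 4 together and 1 to 4 with single samples left out, against 2. The cause of these shifts was not tested. Leaving samples out also left fewer samples in the fit. Same-numbered samples were not seen to deviate together (19 pairs, correlation -0.315 to 0.126, 2 over 0.1). Groups of 3 or 4 samples are too small to exclude that such samples were linked. The replicate block moved no other count by over 1.5 times. Depth is unknown for TPM, which limits what can be said of members under 1 TPM.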

Other observations

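Several Wnt genes are close neighbours in the mouse genome (GENCODE M21, GRCm38), and their values are set side by side here. Wnt10a and Wnt6 lie 6193 bp apart on chromosome 1, on the same strand. Wnt6 fell after croton oil in both genotypes (-0.80 ± 0.13 in LC-DTR and -1.25 ± 0.13 in LC-DTA), and Wnt10a was not called in either (0.00012 ± 0.084 and -0.069 ± 0.084). Wnt3a and Wnt9a lie 16175 bp apart on chromosome 11, on opposite strands. Wnt3a fell in both genotypes (-1.38 ± 0.24 and -1.12 ± 0.24), and Wnt9a was called in LC-DTA (-1.15 ± 0.12) and not in LC-DTR (-0.16 ± 0.12). Wnt3 and Wnt9b are 24328 bp apart on chromosome 11, and Wnt9b stayed at or under 0.503 TPM in every sample. Wnt1 and Wnt10b are 11706 bp apart on chromosome 15, and Wnt1 stayed under 1 TPM in every sample where Wnt10b had mean levels of 4.93 and 1.56 TPM in LC-DTR vehicle and croton oil samples and 2.49 and 0.984 TPM in LC-DTA.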
